A study of Mus musculus with 36 samples.

Results

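The macroH2A genes, *H2afy* (*Macroh2a1*) and *H2afy2* (*Macroh2a2*), were followed through RNA-seq of mouse melanoma, of CD8 T cells and cancer-associated fibroblasts (CAFs) sorted from it, and of immortalized dermal fibroblasts (iDFs). They were taken by name from the Gencode vM21 annotation, as 2 of 54115 genes, together with every transcript annotated to them, 9 of the 140992 transcripts in the files. *H2afy* (ENSMUSG00000015937.15) lies on the minus strand of chromosome 13, from 56073619 to 56136361 in GRCm38, and has 8 transcripts. *H2afy2* (ENSMUSG00000020086.6) lies on the minus strand of chromosome 10, from 61738665 to 61784147, and has a single transcript.

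The 36 libraries compared wild-type (WT) mice with mice constitutively deficient for both genes (dKO, carrying the alleles Macroh2a2tm1.1Peh and Macroh2a1tm1Peh). The sources used here do not say which part of each gene those alleles remove, so reads that remain do not test the genotype labels. All tumours arose in mice that also carried BrafCA and Tyr-CreERT2 among their tumour-model alleles, in which topical 4-hydroxytamoxifen activates Cre in melanocytes, on a mixed background of 129S with C57BL/6 and FVB, and were taken 50 days after induction. Bulk tumours gave 6 WT libraries (4 female, 2 male) and 6 dKO libraries (1 female, 5 male) in 3 labelled batches, each with 2 of either genotype. CD8 T cells, from mice aged 9 weeks at induction, and CAFs, sorted on CD140a from mice aged 10 weeks at induction, gave 4 WT and 4 dKO libraries each, 2 of either sex per group. The iDFs, male and derived from skin without tumours, were starved in 0.5% serum for 24 h and collected at 0 min or after 30 min in 10% serum, with 2 libraries for each genotype and time. The paper calls the 2 iDF libraries of a group experimental replicates, and the labels name no separate animals. Their p-values therefore measure the spread between libraries, which may be technical. The number of iDF lines per genotype is not stated, so genotype and cell line cannot be told apart in the iDFs.

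MacroH2A proteins are H2A variants in which a histone fold is joined by a linker to a large globular macro domain, and they are known for enrichment in silent chromatin such as the inactive X chromosome. *H2afy* encodes a pair of proteins through a choice between mutually exclusive exons in the macro domain: macroH2A1.1, whose macro domain binds ADP-ribose and is typical of differentiated cells, and macroH2A1.2, whose macro domain does not and which is widely made in proliferating cells. *H2afy2* encodes macroH2A2 and has no such choice.

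The exon that separates the splice forms is shown because the results turn on it. It is exon 6 of H2afy-201 (macroH2A1.2, 100 bases, chr13:56089758-56089857) and exon 6 of H2afy-202 (macroH2A1.1, 91 bases, chr13:56088252-56088342), and its counterpart is exon 6 of the *H2afy2* transcript (100 bases, chr10:61747672-61747771). All are coding sequence on the minus strand of GRCm38. Capitals mark exon 6, and the lower-case letters are the last 12 bases of exon 5 and the first 12 of exon 7, read from the Gencode vM21 transcripts.
macroH2A1.2 exon, H2afy-201: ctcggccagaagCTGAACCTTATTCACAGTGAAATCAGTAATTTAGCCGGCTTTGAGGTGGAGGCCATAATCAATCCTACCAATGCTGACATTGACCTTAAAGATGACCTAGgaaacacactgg
macroH2A1.1 exon, H2afy-202: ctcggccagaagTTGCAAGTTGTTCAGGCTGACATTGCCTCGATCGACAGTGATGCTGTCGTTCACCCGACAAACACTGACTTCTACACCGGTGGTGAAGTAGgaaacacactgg
macroH2A2 exon, *H2afy2*: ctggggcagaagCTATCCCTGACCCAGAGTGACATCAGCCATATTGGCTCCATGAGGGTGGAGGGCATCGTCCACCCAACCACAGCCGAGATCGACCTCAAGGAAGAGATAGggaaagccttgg

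The *H2afy2* exon matched the macroH2A1.2 exon of the same length at 65 of 100 bases. The macroH2A1.1 exon was 9 bases shorter, and aligned with gaps it matched the macroH2A1.2 exon at 48 bases. Exons 3 to 8 had equal lengths in H2afy-201 and the *H2afy2* transcript, 6 of 9 exons.

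Besides the pair of coding transcripts, H2afy-204 is a non-coding processed transcript over exons 1 to 5. It ends in a further exon of 86 bases that the coding transcripts lack. H2afy-203 is a retained-intron transcript over exons 7 to 9. H2afy-206 is a retained-intron transcript that begins in the intron before the macroH2A1.2 exon and runs from that exon into exon 9. H2afy-205, H2afy-207 and H2afy-208 cover the 5′ end. The coding transcripts took 68.7% to 88.5% of the *H2afy* reads in a library but 38.7% to 68.1% of its TPM, Salmon's abundance scaled to the library and divided by effective length, by which the short forms weigh more. Salmon, which made these values, shares out reads that fit several transcripts, and H2afy-201 also differs from H2afy-202 by a longer first exon (286 against 185 bases), so transcript values are estimates and not counts of reads over exon 6. Which part of *H2afy* the dKO allele removes is not stated, and dKO reads were fitted to these intact forms. In dKO libraries an altered transcript and a changed exon choice therefore cannot be told apart.

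**Figure D1:**
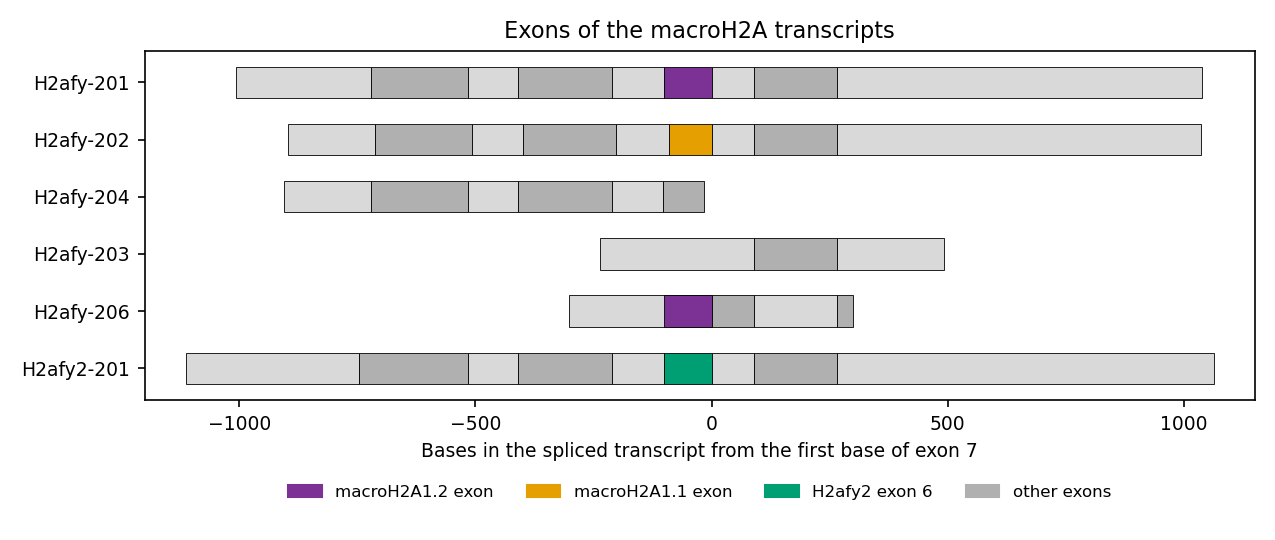
Exons of 6 macroH2A transcripts drawn to scale as boxes, by bases in the spliced transcript from the first base of exon 7. The macroH2A1.2 exon (purple) is in H2afy-201 and H2afy-206, the macroH2A1.1 exon (orange) in H2afy-202, and exon 6 of *H2afy2* is green; only H2afy-201, H2afy-202 and the *H2afy2* transcript run through all 9 exons.

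Depth ran from 17526681 to 85432438 reads in genes per library, and only bulk libraries exceeded 30960463. The kits differed, with 1 µg of RNA for bulk tumours and iDFs, 80 ng for CAFs and 5 ng with a low-input kit for CD8 T cells, so cell type and kit cannot be told apart. The 5 CD8 T cell markers summed to 2423 to 3566 TPM in the sorted CD8 libraries and to at most 1.88 TPM in CAFs and iDFs, and the 7 fibroblast markers summed to 9842 to 66165 TPM in CAFs and iDFs, as their labels state. The CD8 libraries also held monocyte and macrophage markers at 41.4 to 407 TPM. Neutrophil markers reached 135 TPM in CD8 dKO replicate 3, and melanocyte markers 187 TPM in CD8 WT replicate 1. The part of other cells in the CD8 values was not tested. The bulk tumours held keratinocyte (2269 to 7608 TPM), skeletal muscle (485 to 5677 TPM), neutrophil (94.2 to 3721 TPM), monocyte and macrophage (317 to 957 TPM), melanocyte (286 to 1676 TPM) and endothelial (47.4 to 113 TPM) markers as well, and all 8 marker lists had overlapping ranges in WT and dKO tumours.

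In WT libraries the macroH2A genes differed in how far they varied between cell types. *H2afy* was present at 151 TPM ± 0.846 (SD, n = 2) in starved iDFs, 95.8 ± 4.7 (n = 6) in bulk tumours, 84.4 ± 4.2 (n = 4) in CAFs and 72.3 ± 10.3 (n = 4) in CD8 T cells. *H2afy2* fell over a far wider range, from 42.2 TPM ± 0.881 in starved iDFs through 18.3 ± 2.72 in CAFs and 6.38 ± 0.681 in bulk tumours to 0.0856 ± 0.105 in CD8 T cells. In TPM, CD8 T cells had the lowest mean for both genes, with *H2afy* well detected and almost no *H2afy2*.

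Levels were compared as log2(TPM + 0.1) by exact two-sided permutation tests over 12 pairs (6 for each gene), with Benjamini-Hochberg adjustment over the 12. For *H2afy*, bulk tumours exceeded CD8 T cells by 0.42 (exact permutation p = 0.00476, adjusted 0.019) and CAFs by 0.18 (exact p = 0.0143, adjusted 0.0429), while CD8 T cells were not separated from CAFs (difference -0.23, exact p = 0.114, adjusted 0.114). The *H2afy* order rests on the unit: as CPM, counts scaled to the library total with TMM over all libraries and not divided by length, bulk tumours, CD8 T cells and iDFs stood at 89.1, 89.5 and 88.3 CPM and CAFs at 70.6 CPM, and the difference between bulk tumours and CD8 T cells was 0.00 (exact permutation adjusted p = 1.0). The step from bulk tumours to CAFs also missed the threshold when any 1 of 8 of the 10 libraries was left out (bulk WT replicates 1, 2, 3, 5 and 6, and CAF WT replicates 2, 3 and 4, adjusted exact p of 0.0612 or 0.0685).

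For *H2afy2*, bulk tumours differed from CAFs by -1.5 and from CD8 T cells by 5.28 on the same scale (each exact permutation p = 0.00476, adjusted 0.019). CD8 T cells differed from CAFs by -6.78, at the smallest exact p that 4 against 4 libraries allow (0.0286, adjusted 0.0612). The pairs with the 2 starved iDF libraries could not go below an exact p of 0.0357 against bulk tumours or 0.0667 against CD8 T cells and CAFs, and each sat at that limit with no overlap of values for either gene. As CPM the *H2afy2* order was the same, at 47.7, 26.0, 9.47 and 0.163 CPM.

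The *H2afy2* signal in CD8 T cells was a handful of reads. WT libraries held 8, 0, 1 and 4 reads and dKO libraries 9.0, 5.80, 4 and 0 reads, in totals of 17526681 to 28690034 reads. A floor of 3 reads corresponds to 0.105 to 0.171 CPM in these libraries, so *H2afy2* was at or near the detection limit in both genotypes, it failed the low-count filter, and no fold is given. The 7 fibroblast markers summed to 0.450 to 407 TPM in the WT and to 31.8 to 895 TPM in the dKO CD8 libraries; the libraries without an *H2afy2* read had sums of 0.450 TPM (WT replicate 2) and 558 TPM (dKO replicate 4), and the part of fibroblast RNA in these reads was not tested.

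**Figure D2:**
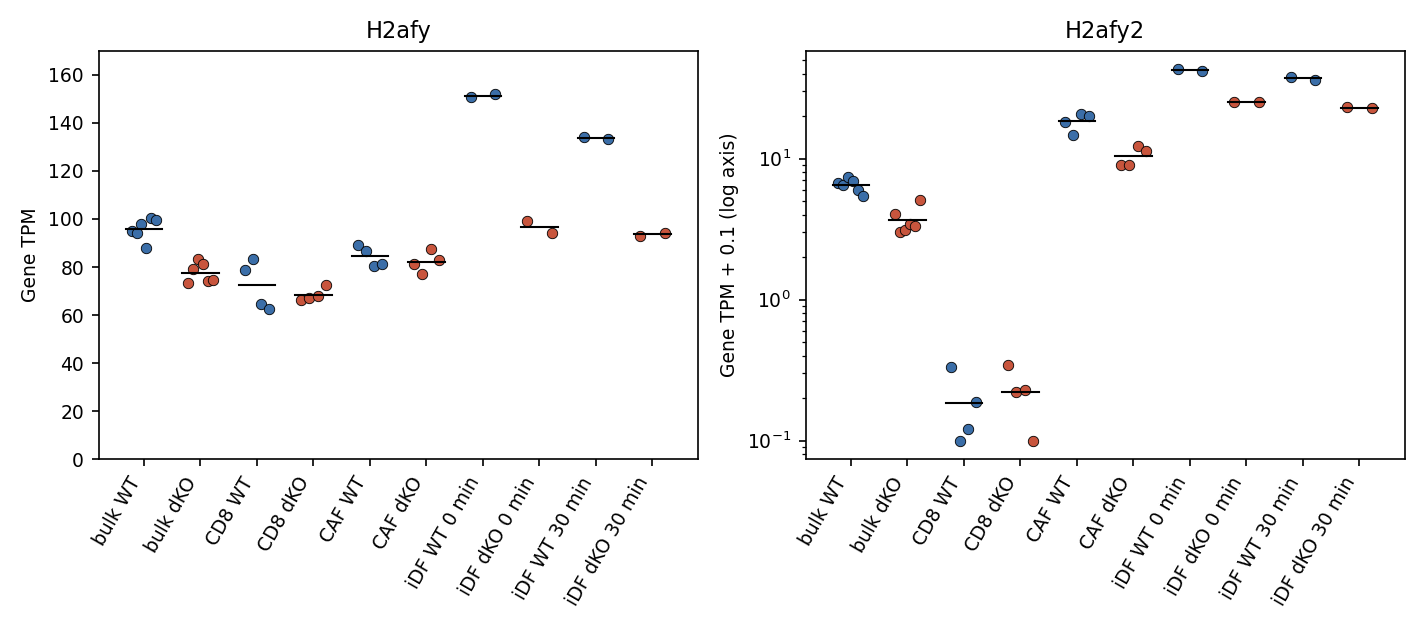
Gene TPM of *H2afy* (left, linear axis) and *H2afy2* (right, TPM + 0.1 on a log axis) in each of the 36 libraries by group; points are libraries (blue WT, red dKO) and bars are group means. *H2afy* lies between 62.6 and 152 TPM, whereas *H2afy2* spans 0 TPM in 2 CD8 libraries to 42.8 TPM in a starved WT iDF library.

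Reads of *H2afy* remained in every dKO library, and reads of *H2afy2* in every dKO library outside the CD8 T cells. In dKO iDFs both genes were at lower levels than in WT. In starved iDFs *H2afy* stood at 151 and 152 TPM in WT and at 99.3 and 94.2 TPM in dKO libraries. At 30 min it stood at 134 and 133 TPM against 93.1 and 94.2 TPM. The WT and dKO values did not overlap at either time. By edgeR's quasi-likelihood test on gene counts, with Benjamini-Hochberg adjustment over all genes, *H2afy* was lower in dKO iDFs by a log2 fold change of -0.56 ± 0.05 (SE) at 0 min (67.8% of the WT level, adjusted p = 3.83e-05) and -0.50 ± 0.05 at 30 min (70.7%, adjusted p = 7.90e-05).

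*H2afy2* was lower in the same libraries by a similar factor. It stood at 42.8 and 41.6 TPM in WT against 25 and 25.1 TPM in dKO iDFs at 0 min, and at 38.1 and 36.2 against 23.2 and 22.6 TPM at 30 min, again without overlap. The log2 fold changes were -0.69 ± 0.05 (62.1% of WT, adjusted p = 1.75e-05 by edgeR) and -0.60 ± 0.05 (65.9%, adjusted p = 4.48e-05). Both members were thus called lower at either time, where 15.9% (0 min) and 15.7% (30 min) of the 14382 genes tested were called lower. The 7 fibroblast markers summed to 11456 to 13638 TPM in WT and 9842 to 11106 TPM in dKO iDFs, and their part in the result was not tested.

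In CAFs *H2afy2* was lower in dKO and *H2afy* was not called. *H2afy2* stood at 17.9, 14.6, 20.8 and 19.9 TPM in WT and at 8.92, 8.93, 12.3 and 11.2 TPM in dKO libraries, without overlap. Its log2 fold change was -0.81 ± 0.09 (57.0% of WT, adjusted p = 0.0022 by edgeR), where 5.72% of 15786 genes were called lower. *H2afy* stood at 89.0, 86.9, 80.3 and 81.4 TPM in WT and at 81.4, 77.2, 87.6 and 82.7 TPM in dKO libraries, which overlapped. Its log2 fold change of -0.17 ± 0.07 (adjusted p = 0.185) shrank to -0.02 (adjusted p = 0.907) with an offset for transcript length. Melanocyte markers summed to 388 to 566 TPM in WT and 76.0 to 350 TPM in dKO CAFs, fibroblast markers to 42818 to 53931 and 50102 to 66165 TPM, and keratinocyte markers to 40.6 to 77.7 and 13.7 to 40.3 TPM. The melanocyte and keratinocyte sums did not overlap between the genotypes, and the part of any of these lists in the result was not tested.

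In bulk tumours both genes were lower in every batch, but the call depended on the test. In the 6 WT tumours *H2afy* had a lowest, median and highest value of 87.7, 96.4 and 101 TPM, and in the 6 dKO tumours of 73.3, 76.8 and 83.1 TPM. For *H2afy2* these values were 5.36, 6.48 and 7.28 TPM against 2.91, 3.28 and 5.01 TPM. Neither gene overlapped between the genotypes. With batch and sex in the edgeR model the log2 fold changes were -0.46 ± 0.12 for *H2afy* (adjusted p = 0.367) and -0.98 ± 0.19 for *H2afy2* (adjusted p = 0.174). Only 5 of 18097 genes, 0.0276%, were called lower there, against 7.52% of genes at an unadjusted p under 0.05 in either direction; the members' unadjusted p from edgeR were 0.00271 and 0.000393. DESeq2 with the same model called both lower (adjusted p = 0.0336 and 3.90e-04), where it called 0.696% of genes lower.

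Within the batches, which hold 2 WT and 2 dKO tumours each and were not tested singly, mean *H2afy* was 73.6 TPM in dKO against 91.3 in WT (batch 1), 76.8 against 96.1 (batch 2) and 82.1 against 100.1 (batch 3). Mean *H2afy2* was 3.59 against 6.69, 3.96 against 6.84 and 3.18 against 5.62 TPM. The highest dKO value of *H2afy2*, 5.01 TPM, was in dKO replicate 6, which also had the highest sum of fibroblast markers of the 12 tumours (14723 TPM, against 3862 to 8177 TPM in the others). In such mixed tissue, fewer cells of a type and less RNA per cell cannot be told apart.

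In CD8 T cells *H2afy* stood at 78.8, 83.4, 64.4 and 62.6 TPM in WT and at 66.2, 67.1, 68.0 and 72.5 TPM in dKO libraries. The dKO values fell within the WT range. The log2 fold change was -0.05 ± 0.11 (96.3% of WT, adjusted p = 0.918 by edgeR), where 0.234% of 14944 genes were called lower. Whether the genotype effect on *H2afy* differed between CD8 T cells and the other cell types was not tested.

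In dKO iDFs 2 of the *H2afy* transcripts, as fitted to the intact forms, were called lower. H2afy-201, the macroH2A1.2 form, fell from 16.2 and 17.1 TPM in WT to 7.48 and 5.19 TPM in dKO libraries at 0 min, and from 16.8 and 19.4 to 6.56 and 6.43 TPM at 30 min. By edgeR over 40507 transcripts the log2 fold changes were -1.35 ± 0.19 (adjusted p = 0.0274) and -1.40 ± 0.19 (adjusted p = 0.0226), so that 39.1% and 37.8% of the WT level remained.

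H2afy-202, the macroH2A1.1 form, stood at 43.9 and 46.9 TPM in WT and 35.7 and 35.1 TPM in dKO iDFs at 0 min, and at 45.2 and 39.1 against 34.6 and 32.2 TPM at 30 min. Its values did not overlap either, but the differences were smaller (-0.32 ± 0.08 and -0.26 ± 0.08) and were not called (adjusted p = 0.13 and 0.212 by edgeR). H2afy-204, the non-coding form over the 5′ exons, was lower by -1.04 ± 0.12 (adjusted p = 0.0174) and -0.85 ± 0.12 (adjusted p = 0.0259), and without the low-count filter the 30 min value missed the threshold (adjusted p = 0.0506). Of the forms that hold only 3′ exons, H2afy-203 differed by -0.01 ± 0.21 and -0.20 ± 0.22, and H2afy-206 by -0.63 ± 0.14 and -0.03 ± 0.14, none called.

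With the *H2afy2* transcript (-0.72 ± 0.05 and -0.62 ± 0.05, adjusted p = 0.00658 and 0.00808 by edgeR), 3 of the 7 member transcripts that passed the low-count filter were called lower in iDFs at either time, where 1.71% (0 min) and 1.78% (30 min) of all transcripts were. H2afy-207 and H2afy-208 failed the filter in every experiment. The differences between the transcripts' fold changes were not themselves tested in this fit.

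In CAFs the *H2afy2* transcript was the 1 member transcript called (-0.85 ± 0.11, adjusted p = 0.0276 by edgeR), where 0.56% of 40884 transcripts were called lower. H2afy-201 stood at 15.5, 11.0, 16.0 and 10.1 TPM in WT and 7.75, 8.38, 7.47 and 9.59 TPM in dKO libraries, without overlap, and was not called (-0.69 ± 0.21, adjusted p = 0.245). H2afy-206 stood at 15.1, 12.7, 9.99 and 14.9 TPM in WT and at 18.8 to 20.4 TPM in dKO libraries, higher in all 4 of these but not called (0.57 ± 0.18, adjusted p = 0.274). H2afy-202 differed by -0.14 ± 0.11 (adjusted p = 0.717). By edgeR H2afy-203 differed by 0.77 ± 0.28 (adjusted p = 0.339) and H2afy-204 by -0.37 ± 0.12 (adjusted p = 0.256), neither called. Gene-level *H2afy* in CAFs was therefore a sum of forms with values on either side of the WT level. Those *H2afy* forms were not called, and their values are not independent, since Salmon shares out reads between them.

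In bulk tumours H2afy-201 had a lowest, median and highest value of 13, 20.6 and 23.3 TPM in WT and 5.68, 9.15 and 11.1 TPM in dKO, without overlap, and H2afy-202 of 29.2, 35.4 and 45 TPM against 28.3, 33.9 and 37.4 TPM, which overlapped. The log2 fold changes were -1.16 ± 0.24 and -0.23 ± 0.16, and neither was called (adjusted p = 0.714 and 0.955). EdgeR called 0 of the 45899 transcripts lower in bulk tumours (0%), and 4.95% had an unadjusted p under 0.05 in either direction, among them H2afy-201 (unadjusted p = 0.0011 from edgeR) and the *H2afy2* transcript (0.00175). Mean H2afy-201 was 8.38 TPM in dKO against 21.9 in WT in batch 1, 10.3 against 21.5 in batch 2 and 7.61 against 14.7 in batch 3.

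In CD8 T cells none of the 6 *H2afy* transcripts tested was called by edgeR, where 0.0501% of 37888 transcripts were called lower and 6.73% had an unadjusted p under 0.05 in either direction. H2afy-201 stood at 24.8 to 35.9 TPM in WT and 22.6 to 33.2 TPM in dKO libraries (-0.17 ± 0.13, adjusted p = 0.899), and H2afy-202 at 9.08 to 19.7 and 10.5 to 18.7 TPM (-0.11 ± 0.27, adjusted p = 0.981). Both ranges overlapped almost fully.

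**Figure D3:**
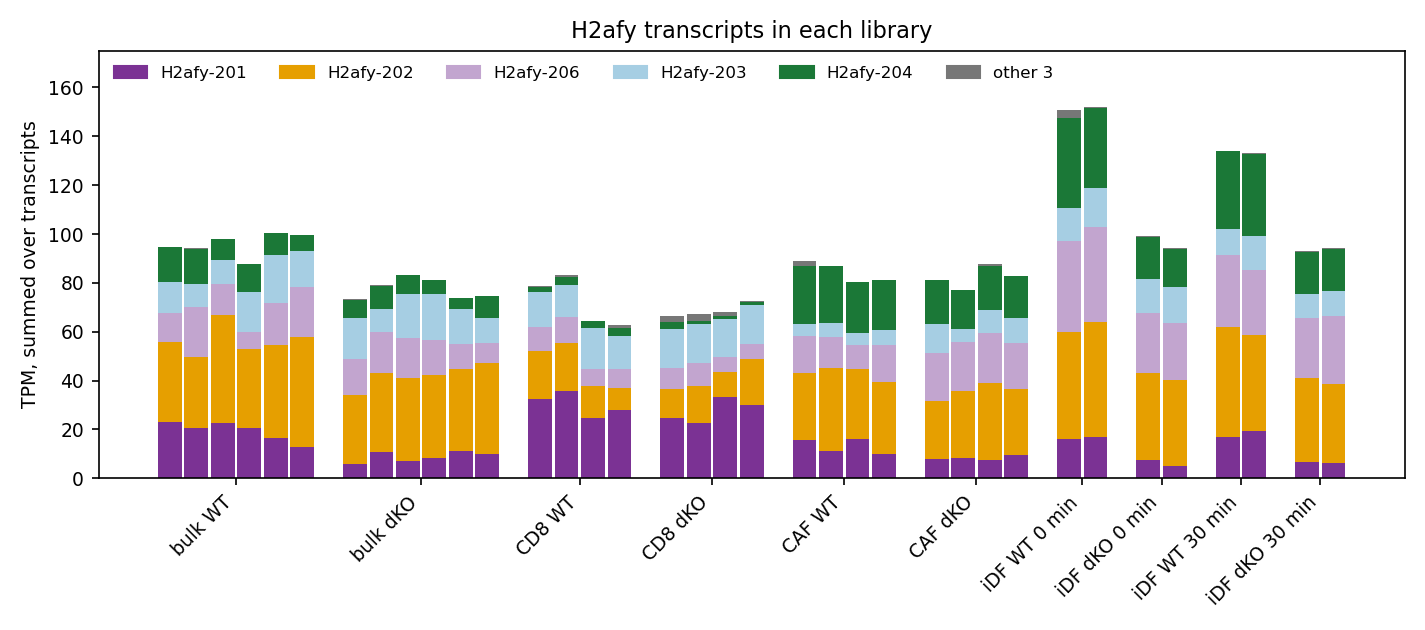
TPM of the *H2afy* transcripts stacked for each library; each bar is 1 library, grouped by cell type, genotype and serum time, and "other 3" is the sum of H2afy-205, H2afy-207 and H2afy-208. H2afy-201 (purple) is the larger of the coding forms in CD8 T cells and the smaller in bulk tumours, CAFs and iDFs, and is at 5.19 to 11.1 TPM in the dKO libraries of the latter.

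**Figure D4:**
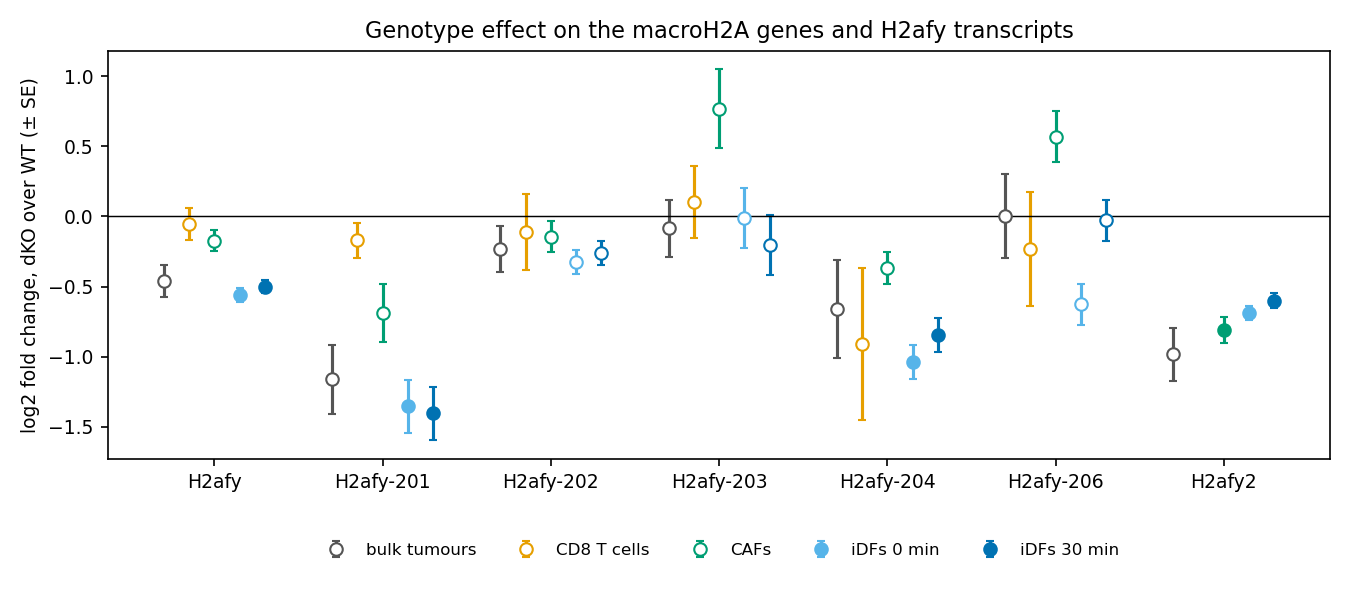
Log2 fold change of dKO over WT with its SE from edgeR for the genes and the *H2afy* transcripts in 5 comparisons; filled points have an adjusted p under 0.05. *H2afy2* and H2afy-201 lie below 0 wherever tested, H2afy-202 lies between -0.32 and -0.11, and H2afy-203 and H2afy-206 lie on both sides of 0.

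The choice between the exons was expressed as the macroH2A1.1 share, the TPM of H2afy-202 as a percentage of the TPM of all transcripts with either exon (H2afy-201, H2afy-202 and H2afy-206). In WT libraries it was 27.8% ± 5.06 (SD, n = 4) in CD8 T cells, 45.4% ± 0.22 (n = 2) in starved iDFs, 51.6% ± 5.80 (n = 6) in bulk tumours and 53.2% ± 4.69 (n = 4) in CAFs. Over H2afy-202 and H2afy-201 alone these means were 33.1%, 73.2%, 65.3% and 69.6%. The place of iDFs against bulk tumours and CAFs thus depends on whether H2afy-206 is counted. In every CD8 library, of either genotype, H2afy-202 was below H2afy-201, at 0.315 to 0.672 of its TPM. In every other library it was above it, at 1.41 to 6.75 times.

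Over 6 pairs of WT cell types, bulk tumours exceeded CD8 T cells by 23.9 percentage points (exact permutation p = 0.00476, adjusted 0.0286), and this missed the threshold without any 1 of the 4 CD8 libraries (replicates 1, 2, 3 and 4; 21.4 to 25.2 points, adjusted exact p = 0.0714). CD8 T cells differed from CAFs by -25.5 points without overlap, at the smallest exact p that 4 against 4 libraries allow (0.0286, adjusted 0.0857). Bulk tumours, CAFs and starved iDFs were not separated from each other (differences of -1.58 to 7.84 points, adjusted exact p of 0.2 to 0.667).

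In bulk tumours the macroH2A1.1 share, as fitted to the intact forms, was higher in dKO. An altered dKO transcript and a changed exon choice cannot be told apart in it. Its lowest, median and highest values were 54.5%, 59.8% and 67.7% in the 6 dKO and 41.7%, 53.4% and 57.6% in the 6 WT tumours, so the ranges overlapped. The difference of 8.60 points had an exact two-sided permutation p of 0.00866 (adjusted 0.0346 over 4 experiments). This test, like that of the ratio of the genes, exchanges labels across batches and sexes and leaves both out. Within batches it was 8.86, 12.5 and 4.47 points. With any 1 of 9 of the 12 tumours left out the difference was 6.61 to 9.03 points and the adjusted exact p 0.0519 to 0.0866; these were WT replicates 1, 2, 4 and 5 and dKO replicates 1, 3, 4, 5 and 6.

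The short H2afy-206 weighs on this share. Over the coding forms alone, H2afy-202 made up 79.4% ± 3.54 (SD, n = 6) in dKO and 65.3% ± 7.53 (n = 6) in WT tumours, 14.1 points apart (exact permutation p = 0.00649, adjusted 0.026). From reads in place of TPM, over all forms with either exon, the difference was 12.9 points (exact p = 0.00649, adjusted 0.026).

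In iDFs the share was 45.2% and 45.5% in WT and 52.7% and 55% in dKO libraries at 0 min, and 49.5% and 45.8% against 52.7% and 48.5% at 30 min. The values overlapped at 30 min and not at 0 min, and over both times the difference was 5.73 points (exact permutation p = 0.111, adjusted 0.222, with labels exchanged within times). Over the coding forms alone the dKO libraries were at 82.7%, 87.1%, 84.1% and 83.4% and the WT libraries at 73.1%, 73.3%, 73.0% and 66.8%, a difference of 12.8 points. Those values did not overlap, and the exact p of 0.056 (adjusted 0.111) is the smallest that the design allows.

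In CAFs the share moved in opposite directions by the 2 measures. It was 47.5%, 58.9%, 52.6% and 53.9% in WT and 46.3%, 49.0%, 53.1% and 48.7% in dKO libraries, a difference of -3.94 points (exact permutation p = 0.257, adjusted 0.343). Over the coding forms alone it was 64.0%, 75.5%, 64.4% and 74.3% against 75.4%, 76.5%, 80.9% and 73.7%, higher in dKO by 7.06 points (exact p = 0.143, adjusted 0.19). Both sets of values overlapped between the genotypes.

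In CD8 T cells the share was 31.8%, 29.5%, 29.4% and 20.4% in WT and 25.8%, 32%, 21.0% and 33.9% in dKO libraries. The ranges nearly coincided, with a difference of 0.418 points (exact permutation p = 0.914, adjusted 0.914). Leaving out 1 library moved this between -2.05 and 2.80 points.

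**Figure D5:**
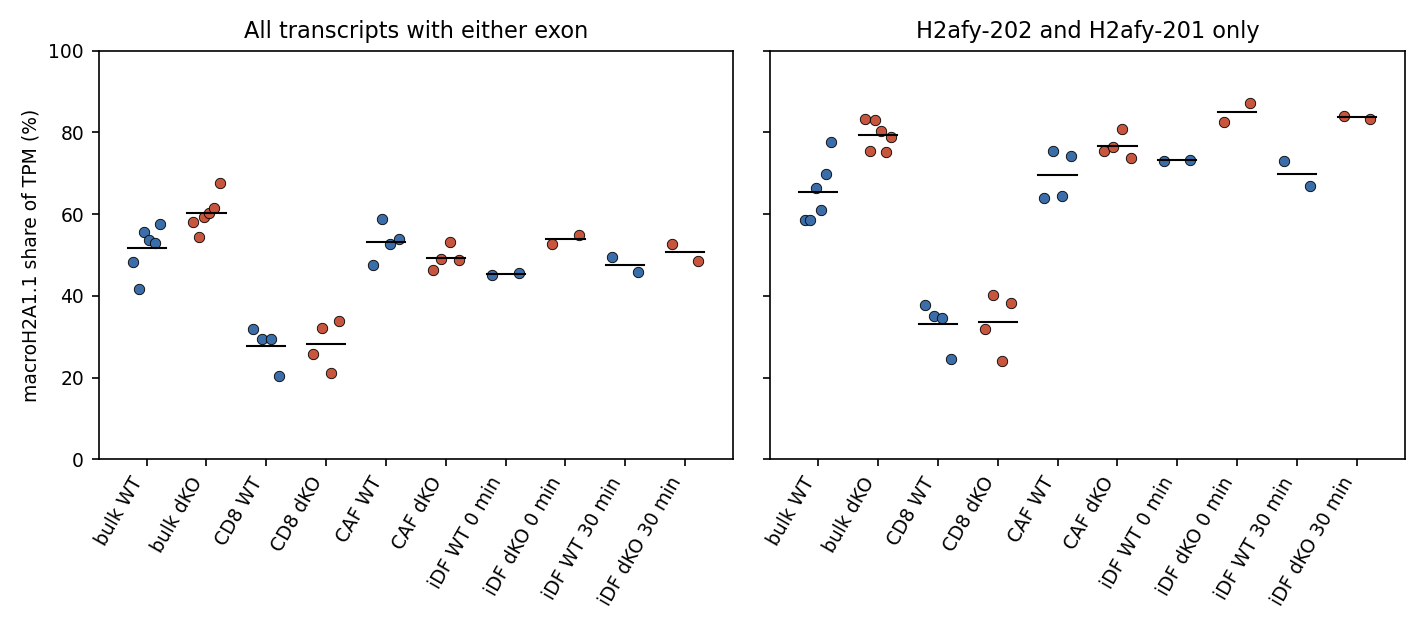
MacroH2A1.1 share of TPM in percent for each library, over all transcripts with either exon (left) and over H2afy-202 and H2afy-201 alone (right); points are libraries (blue WT, red dKO) and bars are group means. CD8 libraries lie between 20.4% and 40.2% and all others between 41.7% and 87.1%; in the right panel the iDF dKO libraries lie above the WT ones.

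The balance between the genes was taken as the log2 ratio of *H2afy2* to *H2afy* TPM, with 0.1 added to each. *H2afy* exceeded *H2afy2* in TPM in every library, by 3.52 to 3.68 times in WT iDFs and 3.75 to 4.17 times in dKO iDFs, by 3.87 to 5.94 and 7.15 to 9.13 times in CAFs, and by 12.9 to 18.6 and 14.9 to 27.5 times in bulk tumours. In bulk tumours the log2 ratio was lower in dKO (-4.42 ± 0.34 against -3.89 ± 0.20, SD, n = 6 each), a difference of -0.53 with an exact permutation p of 0.0108 (adjusted 0.0433). Within batches the difference was -0.58, -0.50 and -0.52. It missed the threshold at an adjusted exact p of 0.0571 from reads or with a pseudocount of 1, and at 0.0519 to 0.0571 without any 1 of 10 of the 12 tumours (WT replicates 1 to 5 and dKO replicates 1 to 5).

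The log2 ratio differed between dKO and WT by -0.79 in CAFs and by -0.14 in iDFs, in both without overlap between the genotypes and at the smallest exact p these designs allow (permutation p = 0.0286, adjusted 0.0571, and 0.056, adjusted 0.0741). In CD8 T cells the ratio rests on the 0 to 9.0 *H2afy2* reads of a library and differed by 0.36 (exact permutation p = 0.6, adjusted 0.6).

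Serum for 30 min moved neither gene past the threshold. In WT iDFs the log2 fold changes of 30 min over 0 min were -0.03 ± 0.05 for *H2afy* and -0.12 ± 0.05 for *H2afy2* (adjusted p = 0.833 and 0.239 by edgeR), and in dKO iDFs 0.04 ± 0.05 and -0.03 ± 0.05 (adjusted p = 0.729 and 0.797). In these comparisons 5.35% and 10.2% of the 14382 genes were called in either direction. The interaction of genotype and serum was 0.06 ± 0.07 and 0.09 ± 0.07 (adjusted p = 1.0 for both by edgeR), where 0.0139% of genes were called. In TPM, WT *H2afy* was lower at 30 min (151 and 152 against 134 and 133), and the short H2afy-206 went from 37 and 39.1 to 29.4 and 26.8 TPM, a log2 change of -0.37 ± 0.14 that was not called (adjusted p = 0.479 by edgeR over transcripts, of which 0.802% were called in either direction).

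The genes around *H2afy* and *H2afy2* were examined because alleles made in 1 strain carry neighbouring sequence with them. Of 30 other genes annotated within 500 kb of *H2afy*, 10 to 14 were tested in an experiment, and of 33 within 500 kb of *H2afy2*, 13 to 15. A call here needed an adjusted p under 0.05 and a change above 0.75 on the log2 scale. No neighbour was called in bulk tumours, CD8 T cells or iDFs by edgeR or DESeq2, where 0.0442%, 0.495%, 9.13% (0 min) and 9.05% (30 min) of all genes were called by edgeR. Members were called on adjusted p alone. By that rule edgeR had 4 and 5 of 10 neighbours of *H2afy* lower in dKO iDFs at 0 and 30 min. It had 3 and 1 of 13 neighbours of *H2afy2* lower there, and none higher. Of all genes 15.9% and 15.7% were called lower there. DESeq2 had 3 and 2 neighbours of *H2afy* and 0 of *H2afy2* at either time. At an unadjusted p under 0.05 from edgeR there were 0, 1, 2, 5 and 6 neighbours of *H2afy* in bulk tumours, CD8 T cells, CAFs and iDFs at 0 and 30 min, and 0, 0, 4, 4 and 3 neighbours of *H2afy2*, where 7.52%, 10.2%, 26%, 43.1% and 43.7% of all genes were. In CAFs, where 5.48% of all genes were called, 1 neighbour of each member was. *Tgfbi*, an extracellular matrix protein gene 473162 bases from *H2afy* (chr13:56609523-56639562), was higher in dKO CAFs (1.60 ± 0.37, adjusted p = 0.0365 by edgeR) and lower in dKO iDFs (-0.37 ± 0.08 and -0.34 ± 0.08, adjusted p = 0.00741 and 0.0111). *Tspan15*, a tetraspanin gene 401249 bases from *H2afy2* (chr10:62185396-62231251), was lower in dKO CAFs (-1.53 ± 0.19, adjusted p = 0.00408 by edgeR) and differed by 0.03 ± 0.09 and 0.08 ± 0.09 in iDFs. On adjusted p alone edgeR had 2 of 10 neighbours of *H2afy* and 2 of 13 of *H2afy2* in CAFs, against 9.52% of all genes. The further ones, named after their values were seen, were *B4galt7* and *Hk1*. Near *H2afy*, *B4galt7* was lower in dKO CAFs (-0.51 ± 0.10, adjusted p = 0.0192 by edgeR) and iDFs (-0.39 ± 0.08 and -0.34 ± 0.08). Near *H2afy2*, *Hk1* was lower in CAFs (-0.46 ± 0.08) and iDFs at 0 min (-0.17 ± 0.05), and was not called at 30 min.

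*Aifm2* (chr10:61715263-61739260), on the opposite strand, overlaps the 3′ end of *H2afy2* by 596 bases and is named after its values were seen. It was lower in dKO iDFs by -0.32 ± 0.08 and -0.29 ± 0.08 (adjusted p = 0.0138 and 0.0265 by edgeR), and differed by 0.00 ± 0.08 in CAFs, 0.06 ± 0.16 in bulk tumours and -0.65 ± 0.38 in CD8 T cells, none of these called. *Gm47071* (chr13:55826250-56084849), an antisense gene on the opposite strand to *H2afy*, overlaps the 3′ end of the *H2afy* span by 11231 bases. It differed by 0.35 ± 0.39 in bulk tumours and 0.06 ± 0.29 in CD8 T cells, neither called, and was not tested in CAFs or iDFs. Whether Salmon was told the strand of the reads was not stated in the methods, so reads of these overlaps may not be separable.

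A list of 7 RNA-binding proteins that regulate alternative splicing, some of them known for the macroH2A1 exon, was followed beside the share. In dKO iDFs 5 of the 7 were higher at 0 min and 6 of 7 at 30 min, and none was lower, where 16.9% and 17.6% of all genes were called higher. They include *Rbfox1* (1.77 ± 0.33 and 1.36 ± 0.35), which was barely expressed, at most 0.468 TPM in WT and 1.28 TPM in dKO iDFs. The median log2 fold change over the list was 0.33 and 0.34, against 0.00 and -0.01 over all genes tested. *Mbnl2*, a muscleblind splicing factor, rose by 0.56 ± 0.04 and 0.59 ± 0.04 (adjusted p = 1.13e-05 and 8.10e-06 by edgeR), *Rbfox2* by 0.32 ± 0.04 and 0.34 ± 0.04, and *Ddx17*, an RNA helicase, by 0.36 ± 0.06 and 0.39 ± 0.06. *Qk*, the Quaking gene, which promotes the macroH2A1.1 exon, differed by 0.10 ± 0.04 at 0 min (adjusted p = 0.0904) and rose by 0.13 ± 0.04 at 30 min (adjusted p = 0.0301). These sizes rest on the unit. In TPM *Rbfox2* overlapped at 0 min (169 to 176 in WT, 174 to 189 in dKO). *Qk* overlapped at 30 min (167 to 173 and 166 to 181 TPM). *Mbnl2* (86.7 to 89.0 and 119 to 126 TPM) and *Ddx17* (267 to 295 and 330 to 366 TPM) did not overlap at 0 min.

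None of the 7 was called by edgeR in bulk tumours or CAFs, nor any of the 6 tested in CD8 T cells, where 0.0442%, 9.52% and 0.495% of all genes were called in either direction. At an unadjusted p under 0.05 there were 1, 1 and 0 of them, against 7.52%, 26% and 10.2% of all genes. With serum, 1 of the 7 rose in WT iDFs (*Ddx5*, an RNA helicase, by 0.26 ± 0.06) and 2 in dKO iDFs (*Ddx5* by 0.27 ± 0.06 and *Mbnl2* by 0.15 ± 0.04), where 3.87% and 6.24% of genes were called higher. Among WT libraries *Qk* stood at 29.7 TPM ± 3.44 (SD, n = 4) in CD8 T cells, 97.9 ± 34.2 (n = 6) in bulk tumours, 147 ± 12.8 (n = 4) in CAFs and 177 ± 7.33 (n = 2) in starved iDFs. *Mbnl2*, *Rbfox2* and *Ddx17* also had their lowest WT mean in CD8 T cells. *Mbnl1* had its highest there, at 696 TPM against 79.8 in bulk tumours, 248 in CAFs and 125 in starved iDFs. *Ddx5* had WT means of 1026 TPM in CD8 T cells, 856 in bulk tumours, 1289 in CAFs and 921 in starved iDFs. *Rbfox1* was lowest in starved iDFs. The part of any of these genes in the macroH2A1.1 share was not tested.

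A list of 6 genes whose proteins handle or bind macroH2A or its ligand was followed as well. In dKO iDFs 4 of the 6 were higher and 1 lower at either time, where 16.9% (0 min) and 17.6% (30 min) of all genes were called higher and 15.9% and 15.7% lower. The median log2 fold change over the list was 0.19 and 0.22. *Hells*, a chromatin remodeller, rose by 0.33 ± 0.04 and 0.32 ± 0.04, *Atrx*, known to oppose macroH2A deposition, by 0.27 ± 0.04 and 0.26 ± 0.04, and the FACT subunits *Supt16* by 0.33 ± 0.04 and 0.37 ± 0.04 and *Ssrp1* by 0.11 ± 0.04 and 0.18 ± 0.04 (all adjusted p between 0.000129 and 0.0347 by edgeR). In mean TPM at 0 min *Ssrp1* did not rise (343 in WT, 341 in dKO). *Hells* (112 and 129), *Atrx* (101 and 118) and *Supt16* (65.8 and 81.1) were higher in TPM too. *Aplf*, a histone chaperone that binds poly(ADP-ribose), fell by 0.38 and 0.33 (SE 0.09 for both, adjusted p = 0.0115 and 0.0211), and *Parp1*, which makes poly(ADP-ribose), differed by -0.12 ± 0.05 and -0.09 ± 0.05 (adjusted p = 0.0703 and 0.191). None of the 6 was called by edgeR in bulk tumours, CD8 T cells or CAFs, with 0, 0 and 1 at an unadjusted p under 0.05 (7.52%, 10.2% and 26% of all genes), nor by serum in WT or dKO iDFs, with 1 and 1 (19.8% and 24.3% of all genes).

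Among 11372 protein-coding genes with a mean of at least 5 TPM, the 3 whose log2(TPM + 0.1) followed *H2afy* most closely over the 18 WT libraries were *Unc119*, *Nol9* and *Nono* (Pearson r of 0.97, 0.97 and 0.96). For *H2afy2* they were *Gas1*, *Irs1* and *Fzd2* (each r = 0.99), which like it were near 0 in CD8 T cells (means of 0.0797, 0.0487 and 0.251 TPM) and highest in iDFs (285, 41.1 and 105 TPM at 0 min). These r describe 5 groups of libraries that share cell type and kit, and carry no test.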

How the data were processed

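RNA was sequenced as 75-base single reads. The authors quantified transcripts with Salmon 1.2.1 on GRCm38.p6 with Gencode M25 and deposited estimated counts and TPM per transcript, without pooling. The annotation here was Gencode vM21, which held 99.2% of the 140992 transcripts by identifier; the rest took 0.25% to 0.52% of a library's reads. Estimated counts were summed per gene and rounded, and TPM summed per gene. Genes and transcripts were filtered with filterByExpr (minimum count 10, total 15) and tested over the whole table with edgeR 4.0.16 (TMM, quasi-likelihood), with batch and sex for bulk tumours, sex for CD8 T cells and CAFs, and 4 groups for iDFs; a call is an adjusted p under 0.05, with a log2 change above 0.75 where stated. DESeq2 1.42.0 was an alternative. Shares, ratios and WT levels were compared by exact two-sided permutation tests. No 2 libraries of a group agreed within counting noise. The fits were tested on simulated counts. At a log2 change of 2, edgeR recovered 87%, 48%, 97% and 99% of changed genes for bulk, CD8, CAF and iDF designs. At a log2 change of 1 it recovered 47%, 12%, 70% and 84% of changed genes. For changed transcripts it recovered 21%, 13%, 42% and 33% at a log2 change of 2, and from 0% to 11% at a log2 change of 1. Most simulated transcript changes thus went uncalled. They were drawn at random from transcripts of many levels, so this recovery need not hold for the member transcripts. The floor of 3 reads covers counting error only.

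Members, gene lists and tests were chosen with earlier results of these data known. The genes named were the members and their transcripts, the splicing and binding lists, neighbours within 500 kb that were called, and the 3 genes most like each member; alternatives were other tests, scalings, filters, units and pseudocounts, a 1 Mb window, a replicate block, and leaving out each library. One allele that all tumour-bearing mice shared is not reported here.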

Additional observations from a re-analysis of the deposited data

Results flagged for a closer look

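H2afy-204, the non-coding transcript over the 5′ exons, stood at 2.56 TPM in CD8 dKO replicate 1, far from the other 3 libraries of its group (1.1 to 1.32 TPM). Chance sets 1 group in about 20 apart in this way, and 54 sets of values were examined.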

How the results depend on the processing

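Of 593 recomputed values, 537 kept their direction and side of the threshold (counts, within 1.5 times). With DESeq2 the genotype effects in bulk tumours passed it (*H2afy* -0.47, *H2afy2* -0.99). The ratio of the genes in bulk tumours missed it with a pseudocount of 1 (-0.40) and from reads (-0.46), and with a tumour left out ran from -0.64 to -0.47. In CAFs the genotype difference in macroH2A1.1 share changed sign from reads (3.58 points) and over the coding forms (7.06 points). Between WT cell types, CPM in place of TPM turned *H2afy* in bulk tumours against CD8 T cells (-0.0048) and iDFs (0.0032) and in CD8 T cells against CAFs (0.33) and iDFs (0.0080), and the share turned in bulk tumours against iDFs from reads (-3.34 points) and over the coding forms (-7.86), and in CAFs against iDFs over the coding forms (-3.63). The cause was not tested beyond what these units set by construction.

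With 1 library left out, the genotype difference in share ran from 6.61 to 9.80 points in bulk tumours and -2.05 to 2.80 in CD8 T cells, below 0 without WT replicate 4 or dKO replicates 2 or 4; between WT groups the share of bulk tumours differed by -3.50 to 0.41 points from CAFs, above 0 without bulk WT replicate 2 or CAF WT replicate 2, and 21.4 to 25.9 from CD8 T cells, and *H2afy* by 0.16 to 0.21 between bulk tumours and CAFs; the serum effect on *H2afy* in dKO iDFs ran from -0.012 to 0.084, below 0 without dKO 0 min replicate 2.

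In a 1 Mb window edgeR called 2 neighbours of *H2afy2* in CAFs and 1 in iDFs at each time, against 1 and 0 within 500 kb; DESeq2 called 1 in CAFs and 0 and 1 in iDFs there, and 2 neighbours of *H2afy* in CAFs against 1 by edgeR. H2afy-206 in bulk tumours moved from 0.00 to -0.018 with RLE scaling, and H2afy-204 in iDFs at 30 min to -0.85 (adjusted p = 0.0506, edgeR) without the low-count filter.

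The iDF replicate numbers are not stated to mark shared cultures, and deviations of same-numbered libraries correlated by 0.0159 to 0.148 over genes. With the replicate block, H2afy-201 at 0 min was -1.36 (adjusted p = 0.0541, edgeR), and no other call on the members changed. No file counts reads over exon 6 itself, which limits the splice-form values.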

Other observations

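H2afy-205, a transcript over exons 1 to 4 that runs on into the following intron, held 0.542% to 5.53% of the *H2afy* reads in WT and 0.749% to 11.8% in dKO CD8 T cells, and at most 0.82% in any other library. It differed by 1.08 ± 0.89 on the log2 scale between dKO and WT CD8 T cells (adjusted p = 0.912 by edgeR). H2afy-208 was at or below 0.259 TPM in every library, and H2afy-207 reached 2.79 TPM in 1 starved WT iDF library and 1.92 TPM in CAF WT replicate 1 but was at 0 in most libraries.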
